A study of Mus musculus with 6 samples.

Results

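The transcripts described here encode the machinery that copies DNA in S phase and the enzymes that supply its deoxynucleotides. They were followed in myoblasts of the mouse C2C12 line, dividing precursors of skeletal muscle, carrying a construct from which tetracycline induces integrin alpha7, a laminin receptor subunit of muscle. The members are a list of 42 genes: the factors that load and activate the replicative helicase, the polymerases, the clamp and its loader, single-strand binding proteins, flap processing, ribonucleotide reductase and thymidylate enzymes, chromatin assembly factor 1 and the transcription factor E2F1. Of the 42, 41 had at least 1 probe set annotated to that gene alone, and Chaf1a was not analysed here. The 41 genes had 91 such probe sets, of which 79 lay above the signal filter, so that all 41 were tested, among 10757 tested genes of the 18193 named on the array.

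The study asked how raised integrin alpha7 affects transcription in myoblasts. All cells were kept undifferentiated for 36 h in DMEM with 20% fetal bovine serum and chick embryo extract, to which glutamine and the antibiotics kanamycin, streptomycin and penicillin had been added; 3 cultures had no tetracycline (noninduced) and 3 had 1 µg/ml of it (induced), described as biological triplicates. One Affymetrix Mouse 430 2.0 array was hybridised per culture, and each probe set gave a linear signal scaled to the same trimmed mean on every array. No tetracycline-treated cells lacking the construct are among the 6 arrays, so the drug and the construct cannot be told apart. The labels do not say whether the line is a single clone.

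Before a cell enters S phase, the origin recognition complex (ORC), Cdc6 and Cdt1 load the ring-shaped MCM helicase onto origins. Kinases, Mcm10, Cdc45 and the GINS complex then activate it, DNA polymerase alpha with primase starts each strand, and polymerases delta and epsilon extend it while held by the sliding clamp PCNA. On the lagging strand the nuclease Fen1 trims the RNA-primed flaps and DNA ligase I joins the fragments. Proliferating myoblasts transcribe these genes largely under E2F control and lower them when they leave the cell cycle to differentiate.

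The target of the construct goes first because it checks the labels. Its single probe set, 1418393_a_at for Itga7, read 811, 778 and 786 without tetracycline, in replicate order, and 675, 727 and 676 with it. It was thus lower where the titles say induced (log2 fold change -0.19, adjusted p = 0.178 in limma; exact two-sided permutation p = 0.1, the smallest that 3 against 3 arrays can give). The instrument records name the same group as the title for all 6 arrays. The labels do not say which part or species of the transcript the construct carries. Whether this probe set can detect the construct is thus unknown. The treated arrays are called the arrays labelled induced. Myoblast markers were present (5 of 6 above the filter, summed signal 5866 to 5983 on noninduced arrays and 5533 to 5817 on those labelled induced), while in the endothelial, macrophage, epithelial and adipocyte lists no marker averaged above a signal of 70.9. Of the differentiated muscle and neural markers, 2 of 6 and 1 of 4 passed the filter, and the brightest averaged signals of 176 and 174. The 2 muscle markers were Acta1 at 0.25, higher without overlap, and Myog at -0.25 with overlap (adjusted p = 0.312 and 0.727 in limma). Of 5 macrophage markers 3 passed the filter, and their list summed to 143 to 157 on noninduced arrays and 110.0 to 132 on those labelled induced; its part in the results below was not tested. On the first principal component (29.7% of the variance) the noninduced arrays scored 5.42, 25.8 and 9.66. Those labelled induced scored -11.3, -16.3 and -13.3, so this component separated the groups. Noninduced array 2 had the most extreme score. By their hybridisation times, noninduced arrays 1 to 3 were assigned to one fluidics run with induced array 1. Induced arrays 2 and 3 made up the other inferred run. Scan order cannot be told apart from group.

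For most of the 41 genes the 95% interval of the brightest probe set, with the deposited scaling, lay within 1.25-fold in either direction. Of the 41 genes, each read from its brightest probe set, Fen1 fell, none rose and 40 did not pass an adjusted p of 0.05 in limma. Over all 10757 genes 33 passed (0.307%), 12 of them lower (0.112%) and 21 higher (0.195%). Of the 79 probe sets of the members 1 passed, against 0.200% of all 22518 tested. The log2 fold changes of the members ran from -0.40 to 0.16 with a median of 0.01, against a median of -0.01 over all genes tested; 20 were negative and 21 positive (48.8% negative, against 52.2% of all genes). The 95% interval of the change lay wholly within 1.25-fold in either direction for 32 of the 41, against 47.6% of all genes. On the log2 scale that bound is 0.32. Other probe sets of some of the 32 genes had intervals past it, such as 0.13 to 0.61 for Mcm6 and -0.48 to 0.02 for E2f1. The width of an interval depends on a probe set's signal and spread, so these shares describe precision. The groups of 3 arrays did not overlap for 10 members (24.4%), against 22.3% of all genes, a share near the background. Of the 10, 6 were lower (background 11.6%) and 4 higher (background 10.7%).

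The zero point of these differences depends on how the arrays are put on one scale. Centring each array on its median in place of the deposited scaling moved the median of all probe sets tested from -0.01 to 0.08 and that of the 41 members from 0.01 to 0.10. It adds the same 0.09 to every fold change, so that the 11 members between that distance below 0 and 0 became positive by construction and 9 stayed negative. Quantile normalization, a further scaling, changed the sign of 1 of the 41 against the deposited scaling. This was Rfc2, at 0.012 with the deposited scaling and -0.0063 with quantile normalization. Small values of either sign thus have no settled direction.

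**Figure D1:**
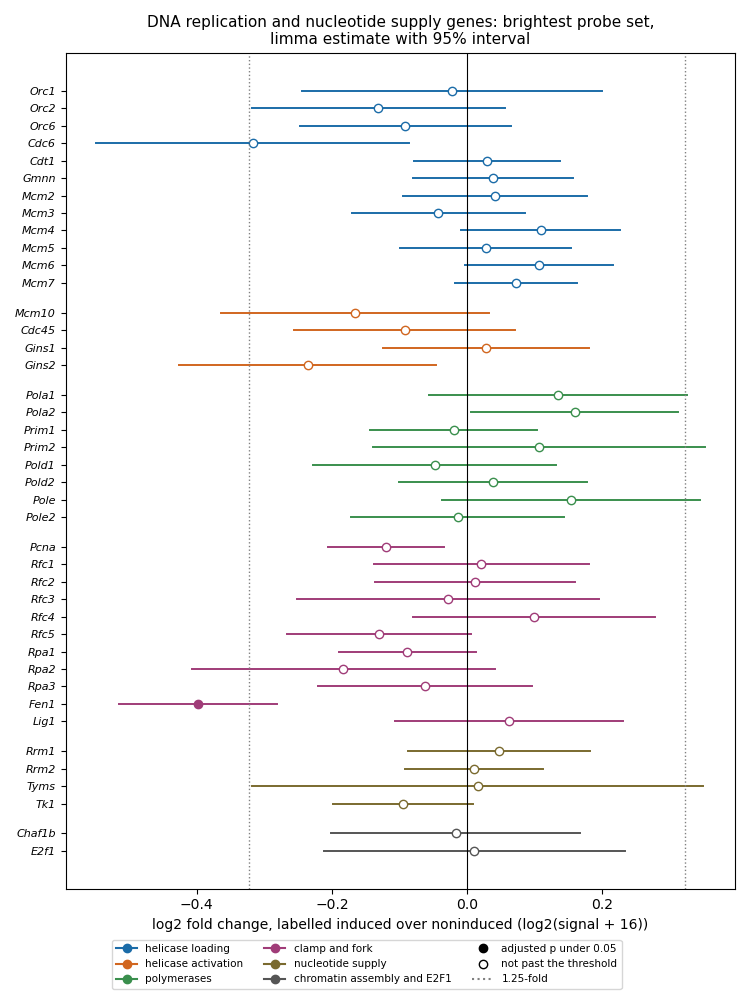
Log2 fold change (labelled induced over noninduced, x axis) of the 41 genes in order of role, with 95% intervals from limma. The filled point, Fen1 at -0.40, is the single one past an adjusted p of 0.05, and most intervals lie between the dotted lines at 1.25-fold.

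Fen1, the flap endonuclease of Okazaki fragment processing and base excision repair, had the largest change. Its brightest probe set, 1436454_x_at, read 1707, 1768 and 1711 without tetracycline and 1258, 1396 and 1275 with it, again in replicate order. Every array labelled induced thus lay well below every noninduced array. The means were 1729 ± 34.2 and 1309.6 ± 75.2 (SD, n = 3 each), a fitted level 24.1% lower (log2 -0.40, SE 0.0538, limma adjusted p = 0.0147). The second Fen1 probe set, 1421731_a_at, gave 1001, 1043 and 1064 against 854, 900.5 and 863, again without overlap, but its log2 fold change of -0.24 had an adjusted p of 0.0914. Both probe sets stayed negative after median centring (-0.30 and -0.15).

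The Fen1 call depended on single arrays, on the filter and on how the variance was estimated. Its adjusted p in limma was 0.0644 without noninduced array 2, 0.0684 without noninduced array 3 and 0.0859 without induced array 1, with log2 fold changes of -0.38, -0.41 and -0.37. It was 0.293 in limma without a variance trend and 0.0553 when dim probe sets were kept. With the fluidics run as a block the change was -0.45 and the adjusted p 0.185. The other run holds no noninduced array, so this value comes from induced array 1 alone.

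Downstream of Fen1, Lig1, the ligase that seals the trimmed fragments, was at 0.06 on the log2 scale and its groups overlapped. Pcna, the sliding clamp on which both enzymes act, read 5546, 5669 and 5837 on the noninduced arrays and 5156, 5237 and 5289.6 on those labelled induced. The groups did not overlap, but the difference was small (log2 -0.12, 95% interval -0.21 to -0.03, limma adjusted p = 0.201), and it was -0.03 after median centring.

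The clamp loader, replication factor C, opens the clamp around DNA. With the brightest probe sets, its 5 subunit genes, Rfc1 to Rfc5, ranged from -0.13 (Rfc5) to 0.10 (Rfc4) with a median of 0.01, and none passed. The second Rfc3 probe set was at -0.16, lower without overlap between the groups (adjusted p = 0.312 in limma). The other Rfc2 probe sets were at 0.46 and 0.40. Rfc1 read 369, 408 and 383 against 370.1, 413 and 395, groups that overlap almost wholly. Its other probe sets gave 0.09 and -0.02. The 3 subunits of replication protein A, which coats single-stranded DNA, were all negative: Rpa1 at -0.09, Rpa2 at -0.18 and Rpa3 at -0.06. After median centring they were at 0.01, -0.09 and 0.03. Rpa1 read 4029, 4229.6 and 3905 against 3750.0, 3722 and 3965, groups that overlap, and its second probe set had the other sign (0.04). Both Rpa2 probe sets were negative (-0.18 and -0.24, adjusted p = 0.437 and 0.282 in limma). The 11 genes of the clamp and the fork had a median of -0.06, which turned to 0.03 with median centring and was -0.11 without noninduced array 2 and -0.01 without noninduced array 1.

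**Figure D2:**
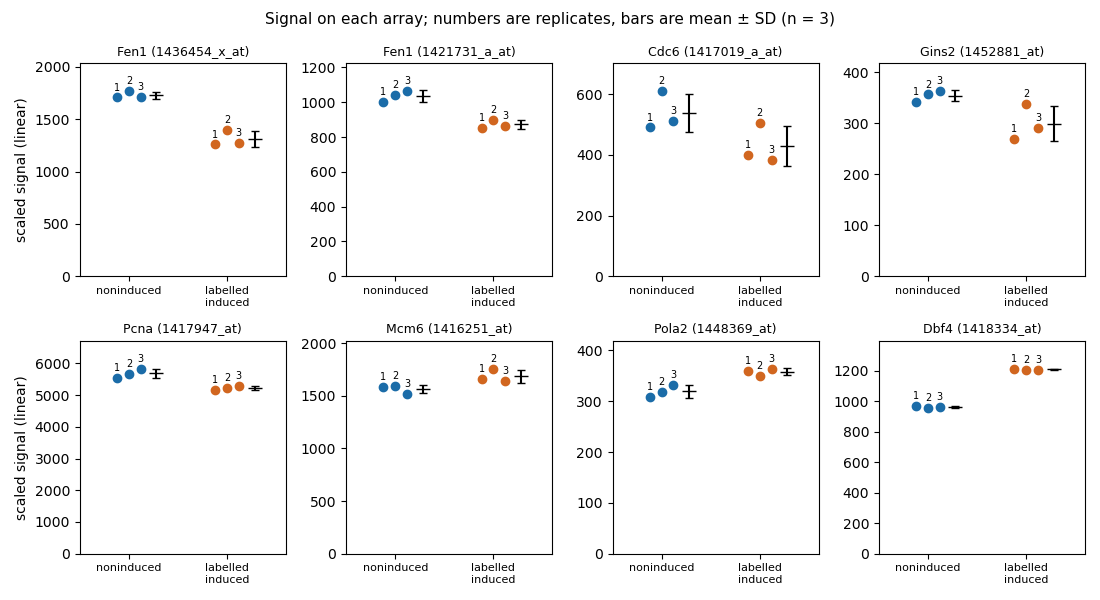
Scaled linear signal (y axis, from 0) of 8 probe sets on each array, with replicate numbers, and mean ± SD of the 3 arrays per group. Both Fen1 probe sets lie lower and Dbf4 higher on every array labelled induced, while Cdc6 overlaps and Pcna, Gins2, Mcm6 and Pola2 are apart by small margins.

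Helicase loading showed no common direction. The 12 genes of this step had a median log2 fold change of 0.03 (0.12 after median centring), and none passed the test. Cdc6, the ATPase that joins ORC on origins and is turned over each cell cycle, had the most negative log2 fold change after Fen1. It read 490.4, 610.5 and 513 on the noninduced arrays and 400.3, 505 and 384 on those labelled induced, so induced array 2 lay above noninduced array 1. The fitted level was 19.7% lower (log2 -0.32, SE 0.106, 95% interval -0.55 to -0.09) and the adjusted p was 0.209 in limma.

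The ORC genes Orc1, Orc2 and Orc6 were at -0.02, -0.13 and -0.09, and at 0.07, -0.04 and 0.00 after median centring. Cdt1, which delivers the helicase, was at 0.03 with its brightest probe set and at 0.015 with the other one above the filter. Its inhibitor geminin, Gmnn, was at 0.04. The intervals of Cdt1 (-0.08 to 0.14) and Gmnn (-0.08 to 0.16) lie within 1.25-fold for both.

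With the brightest probe sets, the 6 subunits of the MCM ring, Mcm2 to Mcm7, ran from -0.04 (Mcm3) to 0.11 (Mcm4), and 5 of 6 were positive. All 5 Mcm3 probe sets were negative. The second of them by signal was at -0.16, lower without overlap between the groups (adjusted p = 0.284 in limma). Mcm4 read 1062, 1054 and 1082 on the noninduced arrays and 1107, 1212 and 1135 on those labelled induced. Mcm6 read 1579.6, 1597 and 1518 against 1660.2, 1759 and 1638. In both genes every array labelled induced was higher, by fitted differences of 7.84% and 7.62% (limma adjusted p = 0.380 and 0.355).

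Mcm7 also had groups apart with its brightest probe set, 3263, 3189 and 3197 against 3399.9, 3449 and 3301, but they were apart in the other direction with another one. Its 4 probe sets gave 0.07, -0.09, -0.10 and 0.15, so this gene has no direction that its probe sets share. Mcm5 likewise read 1449.9, 1306 and 1466 against 1451, 1472 and 1376 with one probe set (0.03), while the other gave -0.10. With the brightest probe sets, all 6 intervals of the ring's subunits lay within 1.25-fold. The intervals of the second probe sets of Mcm4 (0.08 to 0.49) and Mcm6 (0.13 to 0.61) reached past it. So did that of a dim Mcm3 probe set (-0.67 to 0.27).

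Promoter sequence, which the arrays do not measure, was set beside these values because E2F factors are known to bind in front of many of the genes. RefSeq promoter windows of GRCm38.p6, 250 bases before to 50 after each start, were at hand for 35 of the 42 members. They were searched on both strands for the 4 forms of the E2F core, TTTCCCGC, TTTCGCGC, TTTGCCGC and TTTGGCGC, forms that can overlap each other on opposite strands. At least 1 was found for 12 of the 35 genes (34.3%), against 2.60% of 27025 genes with such windows, and 5 of the 35 held 2 or more (14.3%, against 0.107%). The 27025 genes were not matched to the members in base composition. Other letters were also more frequent in the members: GGGCGG in 74.3%, against 38.2%, and CCAAT in 62.9%, against 41.1%. The pieces below are those upstream of the start for a helicase loader, an ORC subunit, MCM subunits and the polymerase alpha gene, written 5′ to 3′ on the gene's strand with the matches in capitals.
Mcm6, chr1:128359745-128359815, minus strand: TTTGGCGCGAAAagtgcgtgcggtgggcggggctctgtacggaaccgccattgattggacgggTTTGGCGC
Mcm5, chr8:75109332-75109391, plus strand: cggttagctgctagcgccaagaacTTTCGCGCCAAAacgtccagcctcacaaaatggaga
Mcm7, chr5:138172015-138172074, minus strand: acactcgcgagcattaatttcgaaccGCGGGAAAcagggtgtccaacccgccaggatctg
Orc1, chr4:108579394-108579453, plus strand: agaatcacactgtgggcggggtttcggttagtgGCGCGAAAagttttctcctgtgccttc
Cdc6, chr11:98907987-98908046, plus strand: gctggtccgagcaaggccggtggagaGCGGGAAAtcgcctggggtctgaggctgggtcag
Pola1, chrX:93632260-93632319, minus strand: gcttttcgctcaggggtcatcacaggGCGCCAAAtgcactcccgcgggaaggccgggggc

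In the Mcm6 and Mcm5 pieces a forward and a reverse match share bases, so that each capital block of 12 letters holds 2 matches. The genes shown ran from -0.32 (Cdc6) to 0.13 (Pola1), with Mcm6 at 0.11, Mcm7 at 0.07, Mcm5 at 0.03 and Orc1 at -0.02. The 12 genes with a match had a median log2 fold change of 0.01 and none passed the test. The 22 tested genes whose windows held none had a median of -0.04, and Fen1 was among them. A match marks letters in this window only.

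The factors that turn the loaded ring into an active helicase were negative in 3 of 4 genes, and none passed the test. Gins2, a GINS subunit, read 342, 356 and 363 on the noninduced arrays and 269, 337 and 291 on those labelled induced. Its second probe set gave 339.7, 304 and 363 against 276, 278 and 256. The groups were apart with both, the log2 fold changes were -0.24 and -0.30 (-0.14 and -0.20 after median centring), and the adjusted p were 0.246 and 0.150 in limma. Mcm10 was at -0.17 with its brightest probe set and negative with all 3. Cdc45 was at -0.09, and its values of 348, 345 and 354 against 302, 343 and 336 were apart by a narrow margin. Gins1, another subunit of the same complex as Gins2, read 410.3, 402 and 382 against 384, 419 and 416 and was at 0.03, with a dim second probe set at -0.07. The median of the 4 genes was -0.13, and -0.04 after median centring.

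Of the 8 polymerase and primase genes 5 were positive, with a median of 0.07 (0.17 after median centring), and none passed. Pola2, the B subunit of polymerase alpha, had the highest log2 fold change of the 41 genes, 0.16 (SE 0.0702, limma adjusted p = 0.324). It read 308, 318 and 332 on the noninduced arrays and 360.1, 351 and 364 on those labelled induced, without overlap. Pole, the catalytic subunit of polymerase epsilon, followed at 0.15 with 330.3, 271 and 324 against 329, 341 and 362, where noninduced array 2 was the low one. The catalytic subunit of polymerase alpha, Pola1, was at 0.13.

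Primase, which lays the RNA primers, gave 0.11 for its large subunit Prim2. The small subunit Prim1 read 1074, 1202 and 1103 against 1091, 1111 and 1128 (-0.02, and 0.07 after median centring), while its other probe set gave 0.18. Pold1, the catalytic subunit of polymerase delta, read 238, 227 and 242 against 216, 242 and 225 and was at -0.05, whereas its second probe set, at 179.8, 161 and 170.5 against 223, 214 and 208, was at 0.31 (adjusted p = 0.147 in limma). The 2 Pold1 probe sets thus do not give one answer. The accessory subunits Pold2 and Pole2 were at 0.04 and -0.01.

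**Figure D3:**
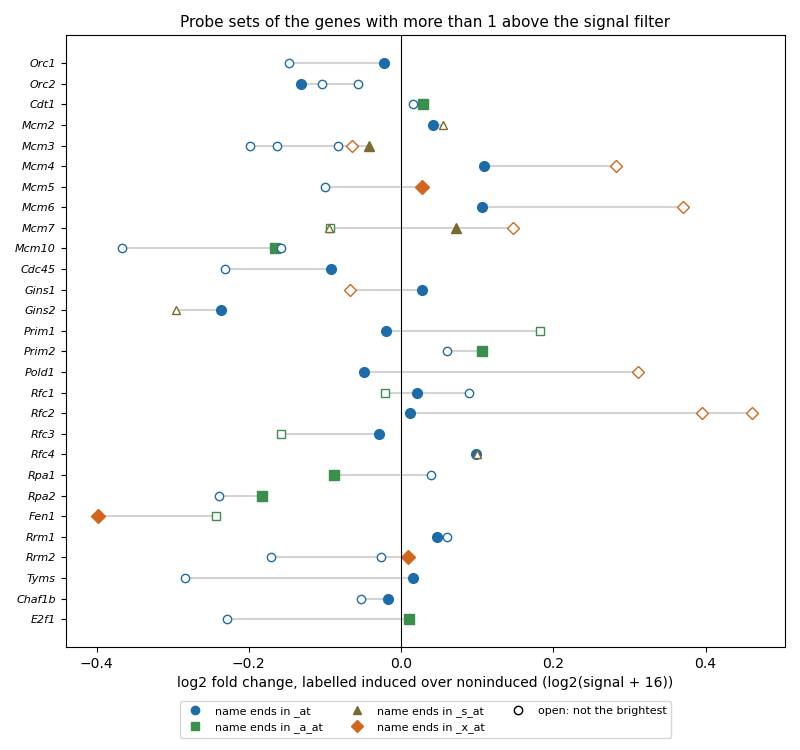
Log2 fold change (x axis) of every probe set above the signal filter for the 28 genes with more than 1, filled for the brightest; marker shape gives the ending of the probe set name. Signs differ within 10 genes, and 5 of 11 probe sets ending in x_at lie above 0.25, where none of the other 68 does.

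The probe sets of a gene often differed. Of the 28 members with more than 1 above the filter, 18 had probe sets of one sign and 10 did not. The 5 most positive values all came from probe sets whose names end in x_at, Affymetrix's mark for sets with probes that can match transcripts of other genes. They were the second probe sets of Mcm4 (0.28), Mcm6 (0.37) and Pold1 (0.31) and 2 of Rfc2 (0.46 and 0.40), and none passed the test. The brightest probe sets of the same genes gave 0.11, 0.11, -0.05 and 0.01.

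Among these, the x_at set of Mcm6 read 635, 543 and 607 on the noninduced arrays and 828, 889 and 624 on those labelled induced. That of Mcm4 read 924, 775 and 877 against 1114, 1150.0 and 892. Noninduced array 2 was the lowest and induced array 3 the lowest of its group in both. Over the whole array, 9.88% of the 1518 x_at probe sets tested and 6.76% of the other probe sets exceeded 0.25, with medians of 0.00 and -0.01. The Fen1 call also comes from an x_at probe set, in the opposite direction. The second Fen1 probe set, whose name ends in a_at, was at -0.24 and did not pass (adjusted p = 0.0914 in limma). Whether the x_at set of Fen1 matches other transcripts was not tested.

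None of the 4 nucleotide supply genes passed the test. Ribonucleotide reductase makes deoxynucleotides from ribonucleotides, and its small subunit Rrm2, which is degraded outside S phase, read 7513, 7374 and 7546 against 7963, 7618 and 7031 on the arrays labelled induced. The log2 fold change was 0.01 with an interval of -0.09 to 0.11; the other probe sets gave -0.03 and -0.17. The large subunit Rrm1 was at 0.05, with 0.06 from its second probe set. Thymidine kinase, Tk1, which salvages thymidine, read 1506, 1541 and 1479.6 against 1420.4, 1387 and 1427, without overlap, but the fitted difference was only 6.39% (limma adjusted p = 0.381) and 0.00 on the log2 scale after median centring.

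Thymidylate synthase, Tyms, makes the thymidine nucleotide of DNA. Its probe sets annotated to it alone were dim, the brightest at 41.9, 48.6 and 41.5 against 46.1, 42.1 and 45.6 (0.02, interval -0.32 to 0.35) and the next at -0.28, and a change of 1.25-fold was not detectable at this signal. A brighter probe set, annotated to both Tyms and its pseudogene Tyms-ps and therefore outside the rule, read 735, 759 and 725 on the noninduced arrays and 635, 598 and 613 on those labelled induced. There the groups did not overlap, with a log2 fold change of -0.26 (-0.17 after median centring; adjusted p = 0.0914 in limma), and which of the 2 genes its signal comes from cannot be told apart. The median of the 4 nucleotide genes was 0.01, and -0.02 without induced array 1. Chaf1b, a subunit of the histone chaperone that assembles nucleosomes behind the fork, read 390.2, 358 and 336 against 389.7, 354 and 328 and was at -0.02.

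E2f1, the transcription factor that activates many of the genes above, read 208, 175 and 206 on the noninduced arrays and 199, 217 and 178 on those labelled induced. This probe set was at 0.01 with an interval of -0.21 to 0.23. A dimmer one read 113, 112 and 106 against 95.7, 80.5 and 99.6 and was at -0.23 (-0.14 after median centring; adjusted p = 0.388 in limma), so the probe sets of E2f1 differ in whether the groups overlap.

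**Figure D4:**
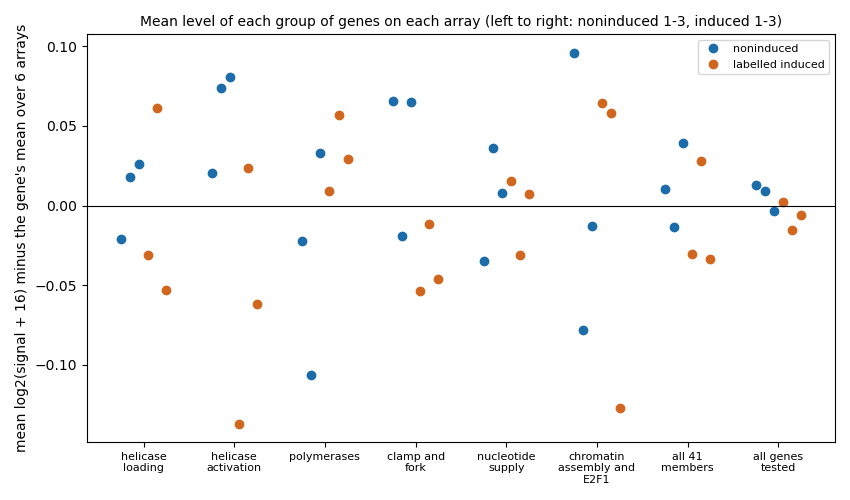
Mean over the genes of each group of log2(signal + 16), minus each gene's own mean over the 6 arrays (y axis), 1 point per array. The 41 members together stay between -0.03 and 0.04 on every array, and the noninduced arrays overlap those labelled induced in each of the 6 role groups.

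Beyond the 42 genes, 5 further lists of the pathway held 101 genes, of which 96 were tested; 1 rose, none fell and 95 did not pass. The list of other replisome and origin factors (30 tested, 15 positive and 15 negative, median 0.00) held the one that rose. It was Dbf4, the regulatory subunit of the Cdc7 kinase that fires loaded origins. Its single probe set, 1418334_at, read 971, 954 and 960.3 on the noninduced arrays and 1213, 1205 and 1206 on those labelled induced, a gap far larger than the spread within either group. The fitted level was 25.2% higher (log2 0.32, SE 0.0493, limma adjusted p = 0.0220), and 0.42 after median centring.

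The Dbf4 call, like that of Fen1, was lost when some arrays were left out. The adjusted p in limma was 0.0769 without noninduced array 2, 0.113 without noninduced array 3, 0.106 without induced array 1 and 0.0824 without induced array 2, while the log2 fold change stayed between 0.32 and 0.33. It was 0.293 without a variance trend, 0.0553 when dim probe sets were kept and 0.308 with the fluidics run as a block. That block fit gave a change of 0.33, which comes from induced array 1 alone. Cdc7 itself, named after its value was seen, was at 0.05 with both probe sets positive.

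In the same list Rnaseh2c, a subunit of the ribonuclease that removes RNA from DNA, was at -0.27 (adjusted p = 0.104 in limma; 603, 624 and 583 against 512, 509 and 469), with other probe sets at -0.17 and 0.15. Top2a, topoisomerase II alpha, was at 0.07, while its dimmer second probe set was at -0.29 without overlap between the groups (adjusted p = 0.260 in limma). In the list of chromatin factors at the fork (9 tested, median 0.01, none passed) the histone chaperone Asf1b was at -0.27 and the histone-binding protein Rbbp7 at 0.08, with 0.11 from its second probe set. Its relative Rbbp4 was at 0.03 with its brightest probe set, whose name ends in x_at, and at -0.03, -0.28 and -0.11 with the others. The list of other nucleotide enzymes (28 tested, 15 positive and 13 negative, median 0.01, none passed) had its largest values in Dctd, deoxycytidylate deaminase (0.18), and the kinase Cmpk1 (-0.18). The nucleoside diphosphate kinase genes Nme1 and Nme2 were at -0.13 and 0.03, and a second Nme1 probe set was at 0.10.

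The list of E2F, RB and G1/S regulators had 17 tested genes, 11 of them negative (median -0.02, and 0.08 after median centring), and none passed. E2f2, an activator of the same class as E2f1, was lowest in it. It read 143, 125 and 130.5 on the noninduced arrays and 77.7, 96.9 and 97.9 on those labelled induced, without overlap. Its log2 fold change was -0.48 (SE 0.119, limma adjusted p = 0.113), and its second probe set gave -0.44 with groups that overlap. Ccne1, cyclin E1, which drives S phase entry, was at -0.31 and -0.42 with its 2 probe sets (adjusted p = 0.139 and 0.138). Ccna2, cyclin A2, was at -0.14 without overlap with its brightest probe set and at 0.00 with overlapping groups with the other. Tfdp1, the E2F partner, was at -0.02.

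In the list of S phase checkpoint and repair genes (12 tested, 6 positive and 6 negative, median -0.03, and 0.07 after median centring, none passed) Rad17, which loads the checkpoint clamp, read 282, 268 and 295 against 409, 405 and 271. Induced array 3 thus lay with the noninduced arrays. The log2 fold change was 0.32 (adjusted p = 0.281 in limma), and without induced array 3 it was 0.51 with an adjusted p of 0.0381. Brca2 was at -0.27 and Msh6 at 0.05. Brca1 was at 0.02, with its other probe sets at 0.00, -0.01 and, for a dim one, -0.32.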

How the data were processed

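Biotin-labelled RNA of each of 6 cultures was hybridised to its own array. The authors deposited 1 linear intensity (signal) for every probe set; per the submitters' processing notes the software was GCOS 1.1.1, and no source used here names its settings. The values show a trimmed mean of 150.0 on every array (2% trimmed at each end), which hides any shift shared by most transcripts. Fluidics runs were inferred from gaps of over 60 min between the hybridisation times in the deposited instrument records (unit other). The same records gave the scan order.

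Samples were grouped by title. After setting aside 64 control probe sets, 45037 remained; 34945 had 1 gene in the platform annotation and only these were named. Values were taken to log2(value + 16), so that fold changes of low signals are understated. The test took in the 22518 probe sets whose mean exceeded the overall median (signal 22.6), and 45 passed (0.200%). It used limma 3.58.1 under R 4.3.3, with eBayes and its mean-variance trend, and p-values adjusted by Benjamini-Hochberg over the 22518 (threshold 0.05); the steps were tested on simulated data. A gene was read from its brightest probe set. Values of every array are given for members past the threshold, the 2 largest changes in each direction, the brightest gene of each role and genes whose probe sets differ in sign. Each further list is represented by genes past the threshold, its 2 largest changes and its 2 brightest genes. Mcm4, Mcm6, Gins2, Cdc45, Tk1, E2f2, Rnaseh2c and Rad17 were added to those with array values after the data were seen. The members and lists were chosen with earlier results of these data known. The number of arrays limits the precision. A limma p-value sets the group difference against the spread between these cultures, moderated by the trend over all probe sets tested. The main fit holds no term for fluidics run or scan order. Alternatives were other scalings, filters, pseudocounts of 1 and 64, no variance trend, blocks for replicate number or fluidics run, each array left out in turn, probe sets averaged within genes and, chosen after seeing the data, the first fluidics run alone.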

Additional observations from a re-analysis of the deposited data

How the results depend on the processing

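The count of 45 probe sets past the test was 306 with median centring, 1 with no filter, 103 with a filter at the 75th percentile, 73 with a pseudocount of 64, 0 without a variance trend (2818 at an unadjusted p under 0.05 in limma), 7 with the replicate block, and 0 with the fluidics run as a block (1918) or within the first run alone (1978). Leaving out 1 array gave 1 to 58. Of the members, Fen1 was lost (0 calls in limma) with no filter, no variance trend, the replicate block, the run as a block and the first run alone; leaving out 1 array gave 0 to 1. In these fits, the first run alone aside, 6, 2, 4 and 4 of the 41 members had an unadjusted p under 0.05 in limma. The shares were 14.6%, 4.88%, 9.76% and 9.76%, against 15.8%, 12.4%, 14.1% and 9.08% of all genes. The main fit had 5 such members (12.2%, against 15.9% of all genes). With probe sets averaged within genes there were 11 (26.8%, against 15.3%). The further lists went from 1 call to 0 under the same 5 settings, and to between 0 and 2 when 1 array was left out. The replicate numbers are not shown to pair the cultures: same-numbered arrays correlated at 0.01, -0.06 and -0.01 in their deviations from the group means.

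The median of the 41 members was 0.10 with median centring and -0.024 with probe sets averaged within genes, and -0.022 to 0.0026 when 1 array was left out. Medians by role with median centring were 0.12 (helicase loading), -0.036 (helicase activation), 0.17 (polymerases), 0.031 (clamp and fork) and 0.11 (nucleotide supply). With probe sets averaged within genes they were -0.014 (helicase loading), -0.20 (helicase activation) and -0.079 (nucleotide supply). Leaving out 1 array gave -0.11 to -0.011 for clamp and fork and -0.017 to 0.026 for nucleotide supply. Itga7 was at -0.10 with median centring. Of the 17 alternatives, 12 give fold changes of their own and 5 repeat those of another fit by construction. Of the 41 members 21 kept one sign in all, Fen1, Cdc6, Gins2, Pcna, Mcm4, Mcm6 and Pola2 among them. Apart from Cdc6, the genes named have groups that do not overlap. For these, leaving out 1 array or using the fluidics run cannot change the sign. Dim probe sets, such as those of Tyms, limit what can be detected.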
